A study of Mus musculus with 20 samples.

Results

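Glucocorticoid receptor target genes, 10 genes known to be switched on by this hormone receptor, were followed in mouse keratinocytes with or without an induced deletion of Cyp11b1, the last gene of corticosterone synthesis. They were taken by symbol as 10 of the 25719 genes in the count table: Tsc22d3, Klf9, Klf15, Zbtb16, Sgk1, Ddit4, Cebpd, Hif3a, Glul and Cdkn1c. All 10 were present, and 8 of them passed a filter on low counts that left 12424 genes for testing.

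Cells from the ears and the backs of 20 mice were sorted for keratinocytes, all mice being homozygous for the floxed allele Cyp11b1 L2/L2. Knockout mice (cKO) also carried K14-CreERTam, a tamoxifen-activated Cre recombinase under the Krt14 promoter, which is active in basal keratinocytes and in other stratified epithelia. Control mice were Cre-negative littermates, so the effect of an active Cre itself is not controlled for. All 20 mice received tamoxifen on 5 consecutive days, and cells were taken on day 6. In the systemic route tamoxifen in oil and ethanol was injected into the peritoneum (100 µl of 10 mg/ml). In the topical route tamoxifen in ethanol was put on the ear (20 µl) and on the dry-shaved back (100 µl). This gave 4 groups of 5 mice: topical control, topical cKO, systemic control and systemic cKO. The age of the mice is not given in the labels used here. Vehicle, shaving and place of application differ along with the route and cannot be told apart from it.

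Cyp11b1 encodes a mitochondrial hydroxylase that forms corticosterone from its precursor. Corticosterone enters the cell and binds the glucocorticoid receptor (Nr3c1), which moves to the nucleus and raises transcription of target genes, often through an inverted repeat of the hexamer AGAACA spaced by 3 bases. Skin has its own steroid synthesis beside the supply from the adrenal gland, which a Cre driven by the Krt14 promoter leaves in place. The question put to the 10 genes was whether loss of local synthesis lowered them in either route. By edgeR's quasi-likelihood test no member was called in either genotype comparison. The largest differences were those of Ddit4 and Tsc22d3, with higher means in systemic cKO; other settings called them higher or turned them to below 0, as given beside their values.

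The matched RefSeq promoters (GRCm38.p6, 250 bases before to 50 bases after each start) covered 7 of the 10 genes with 14 start sites. Both strands were searched for the full element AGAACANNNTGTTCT, for its hexamer AGAACA and for the E-box CACGTG, the binding sequence of clock proteins and other basic helix-loop-helix factors. The full element was found in 3 of 32851 promoters (0.00913%), and 1 of these 3 belongs to Sgk1. Hexamers were found in 19.0% of all promoters and in 4 of the 14 promoters of these genes, of Sgk1 and Tsc22d3. E-boxes were found in 7.15% of all promoters and in 2 of the 14, of Klf15 and Sgk1. The hexamer search also counts the hexamers of the full element, and the Sgk1 E-box overlaps a further hexamer. A match is a description of letters and not evidence of binding. Part of 3 promoters is printed 5′ to 3′ on the gene's strand with the match in capitals. Sgk1 is shown for the full element, which starts at position -189 counted from 0 at 1 of its 6 start sites. Tsc22d3 is shown because it was the most abundant of the 10 genes, with 1 hexamer on the opposite strand at position -185. Klf15 is shown because it is the gene that differed between routes in both genotypes, with E-boxes at positions -228, -172 and -3.
Sgk1, chr10:21993640-21993899, plus strand: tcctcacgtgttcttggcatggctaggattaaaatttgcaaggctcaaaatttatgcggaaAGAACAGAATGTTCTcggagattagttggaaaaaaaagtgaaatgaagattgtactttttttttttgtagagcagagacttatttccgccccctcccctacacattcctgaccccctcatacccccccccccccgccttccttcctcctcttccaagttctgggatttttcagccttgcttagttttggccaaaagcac
Tsc22d3, chrX:140600513-140600772, minus strand: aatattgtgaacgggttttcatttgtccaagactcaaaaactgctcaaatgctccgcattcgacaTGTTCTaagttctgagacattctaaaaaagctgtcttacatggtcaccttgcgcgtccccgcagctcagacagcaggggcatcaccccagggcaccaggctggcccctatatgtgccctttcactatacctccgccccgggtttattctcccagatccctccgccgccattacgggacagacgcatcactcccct
Klf15, chr6:90462326-90462585, plus strand: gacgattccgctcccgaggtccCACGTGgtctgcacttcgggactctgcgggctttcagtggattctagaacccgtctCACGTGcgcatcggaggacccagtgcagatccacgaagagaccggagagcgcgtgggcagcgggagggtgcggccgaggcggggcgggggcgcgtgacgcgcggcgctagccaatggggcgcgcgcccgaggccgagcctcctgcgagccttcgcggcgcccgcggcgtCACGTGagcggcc

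Libraries held 11.6 to 50.1 M counts, and the detection floor of 3 counts corresponded to 0.0599 to 0.259 CPM (counts scaled to the library total). Mitochondrial genes took 1.87% to 7.49% of the counts, and Y-linked genes marked 2 or 3 of the 5 mice of each group as male. No pair of libraries held identical values. The summed level of 12 predicted genes whose transcripts resemble satellite repeats was 79.4 to 37287 CPM in 6 libraries, which were all 5 systemic controls and systemic cKO 2. In the other 14 libraries the sum was 0.839 to 42.5 CPM. These satellite-like levels nearly follow genotype within the systemic route, so the larger systemic differences and the median of the members are also given with them as a covariate, a setting added after seeing the data. With this covariate as above or below 50 CPM, the systemic genotype difference rests on the single library systemic cKO 2 on the high side. Summed keratinocyte markers (Krt5, Krt14, Krt1, Krt10 and 6 others) ran from 78332 to 109320 CPM, summed fibroblast markers from 5.93 to 48.4 CPM, and summed markers of epidermal immune cells from 9.56 to 38.5 CPM. Fewer cells of a type and less RNA per cell cannot be told apart in bulk libraries.

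The targeted gene was near the limit of detection. Cyp11b1 (ENSMUSG00000075604, chr15:74834125-74841643, minus strand) had 0, 1, 1, 2 and 5 reads in the topical controls and 0, 0, 0, 1 and 6 in topical cKO. It had 0, 0, 0, 1 and 1 reads in the systemic controls and 0, 0, 0, 0 and 4 in systemic cKO. The groups overlapped in both routes. The mean difference on the log2(CPM + 1) scale was -0.08 in the topical route (exact two-sided permutation p 0.468, 252 arrangements) and 0.01 in the systemic route (exact permutation p 1). With so few reads no loss of the transcript could be seen. The labels do not say which exons are floxed, Gml2 overlaps the gene on the opposite strand, and no source used here says whether counting used strand.

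The receptor itself was measured at overlapping levels in all groups. Nr3c1 (ENSMUSG00000024431) averaged 26.8 ± 6.66 CPM in topical controls, 27.98 ± 5.37 in topical cKO, 31.2 ± 3.54 in systemic controls and 28.8 ± 4.18 in systemic cKO (mean ± SD, n = 5 each). For the receptor, its relative Nr3c2, its cochaperones and its coactivators 9 genes were tested. EdgeR, the DESeq2 Wald test and voom called none of them in a genotype comparison. At an unadjusted p under 0.05 edgeR had 0 in the topical and 1 in the systemic route, where 5.66% and 15.3% of all genes stood. Among those of the 9 averaging 5 CPM or more, Ptges3, a cochaperone of Hsp90, had the lowest topical log2 fold change with -0.28 (SE 0.17). It also had the highest systemic one with 0.36 (SE 0.17). Hsp90aa1 was highest of these in the topical route with 0.14 (SE 0.20), and the coactivator Ncoa2 lowest in the systemic route with -0.15 (SE 0.24). The mineralocorticoid receptor Nr3c2 was below that level, with means of 0.289 CPM in topical controls and 0.510 in topical cKO. It had the highest topical value of all 9, 0.88 (SE 0.44, adjusted p 0.900), and is named after its value was seen. Between routes in controls edgeR called Ptges3 lower in the systemic route (-0.67, SE 0.17, adjusted p 0.0101) and Nr3c2 higher (1.31, SE 0.43, adjusted p 0.0375). Of all genes 8.16% were called lower and 10.2% higher. In cKO 0 of the 9 were called between routes. Given satellite-like CPM over 50 as a covariate, 1 gene of all was called between routes in controls.

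Levels of the target genes differed by orders of magnitude. Per kilobase of exon, Tsc22d3 was highest with 26.4 ± 8.62 CPM per kb (mean ± SD over all 20 libraries), followed by Sgk1 with 19.2 ± 6.19 and Klf9 with 8.55 ± 2.98. Cebpd followed with 5.93 ± 1.61, Ddit4 with 4.18 ± 1.97, Glul with 4.15 ± 1.21 and Zbtb16 with 2.57 ± 1.05 CPM per kb. Klf15 (0.471 ± 0.273) and Cdkn1c (0.214 ± 0.183) were far lower, and Hif3a had 12 reads in all, in 5 of the 20 libraries. Between neighbours in this order, the mean ± SD ranges were apart for Sgk1 over Klf9, Zbtb16 over Klf15 and Cdkn1c over Hif3a. All other neighbours lay within each other's spread, and Ddit4 exceeded Glul in 10 of the 20 libraries.

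**Figure D1:**
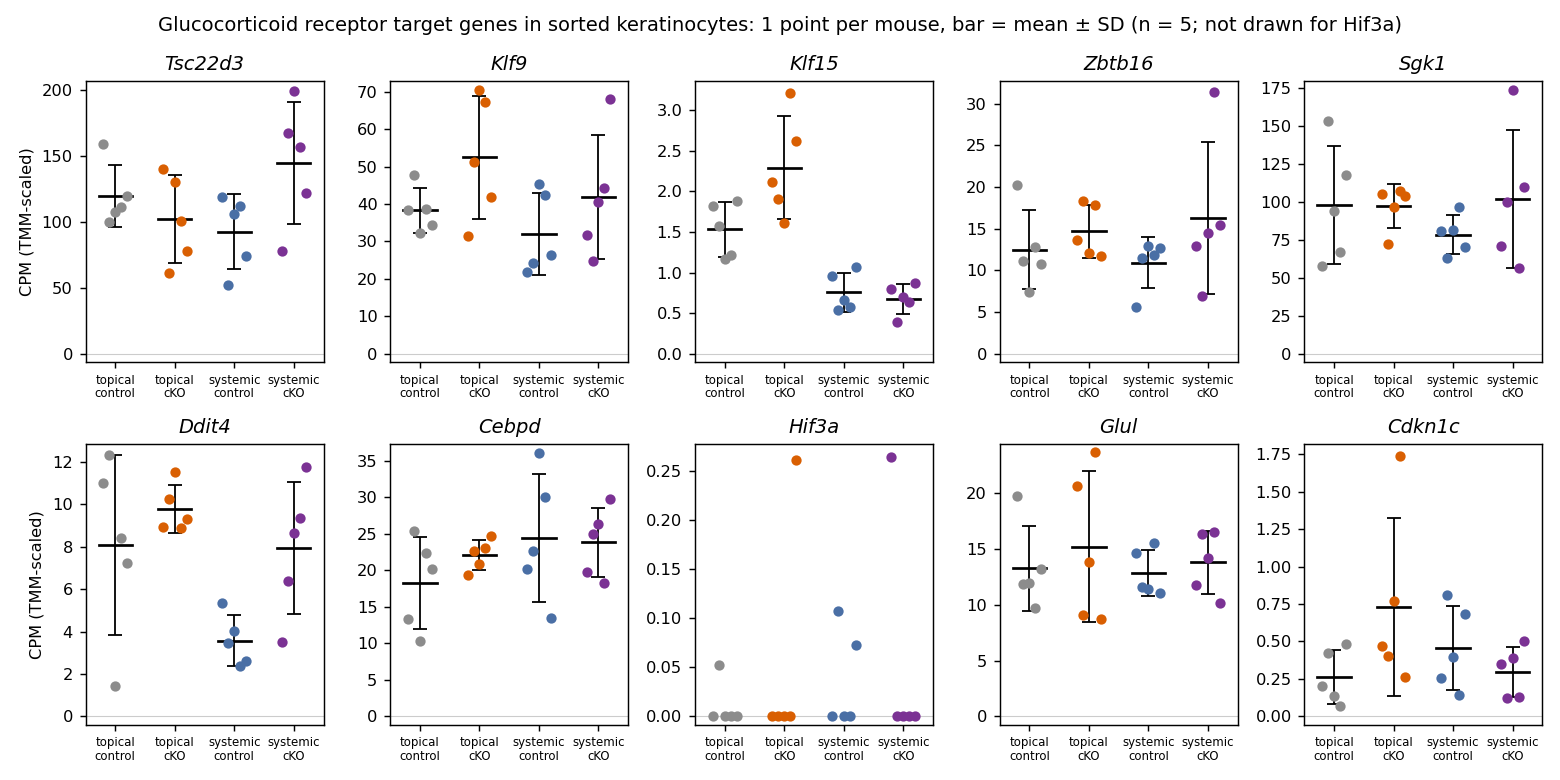
TMM-scaled CPM of the 10 genes in each of the 20 mice (points), by group on the x axis, with the mean and SD of the 5 mice; each panel has its own linear y axis. Klf15 is lower in all 10 systemic than in all 10 topical libraries, and Ddit4 is low in the 5 systemic controls, in systemic cKO 2 and in topical control 5.

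The first group of members damps inflammation or relays hormone signals. Tsc22d3 (ENSMUSG00000031431, chrX:140539528-140600659, minus strand) encodes GILZ, a leucine zipper protein that restrains NF-κB and AP-1 and is a standard readout of receptor activity. It measured 99.7, 107, 112, 119 and 159.6 CPM in topical controls and 61.2, 78.2, 101, 131 and 140.1 CPM in topical cKO. The groups overlapped, and the log2 fold change of cKO over control was -0.23 (SE 0.27, 95% interval -0.78 to 0.32, edgeR adjusted p 0.997). Systemic libraries measured 51.8, 74.2, 106, 112 and 119 CPM in controls and 77.7, 122, 157, 168 and 199.7 CPM in cKO. Every systemic cKO library except systemic cKO 2 was above all systemic controls. The log2 fold change was 0.65 (SE 0.27, 95% interval 0.10 to 1.20, edgeR unadjusted p 0.0235, adjusted p 0.237), the opposite sign from the topical route. Given satellite-like CPM over 50 as a covariate the value was -0.25, and with mitochondrial percent as a covariate it was 0.82 and passed the test (adjusted p 0.0285).

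Sgk1 (ENSMUSG00000019970, chr10:21882184-21999903, plus strand) encodes a kinase that responds to glucocorticoids and mineralocorticoids and regulates sodium transport. It ranged from 57.5 to 153 CPM in topical controls and from 72.6 to 108 CPM in topical cKO, with a log2 fold change of -0.01 (SE 0.27, 95% interval -0.57 to 0.54). Under systemic tamoxifen it ranged from 62.9 to 96.7 CPM in controls and from 56.2 to 174 CPM in cKO, with 0.38 (SE 0.27, 95% interval -0.18 to 0.94, adjusted p 0.544), or 0.10 without systemic cKO 5. The knockout group enclosed the whole control range in the systemic route, and the control group did so in the topical route.

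Ddit4 (ENSMUSG00000020108, chr10:59949669-59951834, minus strand) encodes REDD1, an inhibitor of mTORC1 induced by glucocorticoids, hypoxia and energy stress. In topical controls it measured 1.43, 7.21, 8.43, 10.996 and 12.3 CPM, and in topical cKO 8.86, 8.93, 9.32, 10.3 and 11.54 CPM. The single low library was topical control 5, and without it the topical log2 fold change moved from 0.27 (SE 0.35, 95% interval -0.47 to 1.002) to 0.0041. In systemic controls it measured 2.36, 2.62, 3.45, 4.02 and 5.36 CPM, and in systemic cKO 3.52, 6.38, 8.64, 9.36 and 11.8 CPM. Of the 5 systemic cKO libraries 4 were above all systemic controls, and systemic cKO 2 lay within their range. The log2 fold change was 1.17 (SE 0.37, 95% interval 0.40 to 1.94, edgeR unadjusted p 0.00455, adjusted p 0.107), the largest difference of the 8 tested genes, and not past the threshold. It passed without systemic cKO 2 (1.34, adjusted p 0.0290), by the DESeq2 Wald test (adjusted p 0.0455), with the replicate block (1.52, adjusted p 0.0413) and with mitochondrial percent as a covariate (adjusted p 0.0451). Given satellite-like CPM over 50 as a covariate it was -0.0045.

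Transcription factors formed the next group. Klf9 (ENSMUSG00000033863, chr19:23141226-23168134, plus strand) is a Krüppel-like factor that the receptor induces in keratinocytes and that restrains their proliferation. It measured 32.1, 34.4, 38.4, 38.6 and 47.7 CPM in topical controls and 31.5, 42.0, 51.3, 67.1 and 70.4 CPM in topical cKO. The 3 highest topical cKO libraries were above all topical controls, but the groups overlapped, with a log2 fold change of 0.45 (SE 0.26, 95% interval -0.08 to 0.99, adjusted p 0.945). After systemic tamoxifen it ranged from 21.9 to 45.3 CPM in controls and from 24.7 to 68.1 CPM in cKO, with 0.39 (SE 0.26, 95% interval -0.15 to 0.93, adjusted p 0.519), or 0.14 without systemic cKO 7.

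Klf15 (ENSMUSG00000030087, chr6:90462576-90475238, plus strand) is a Krüppel-like factor that the receptor induces in many tissues and that steers amino acid and glucose use. It measured 1.16, 1.21, 1.58, 1.82 and 1.88 CPM in topical controls and 1.62, 1.90, 2.12, 2.61 and 3.22 CPM in topical cKO. The groups overlapped, and the log2 fold change was 0.58 (SE 0.26, 95% interval 0.03 to 1.13, edgeR unadjusted p 0.0394, adjusted p 0.839). In systemic controls it measured 0.539, 0.572, 0.658, 0.957 and 1.07 CPM, and in systemic cKO 0.391, 0.632, 0.703, 0.793 and 0.875 CPM. Here the genotypes overlapped almost fully, with -0.24 (SE 0.30, 95% interval -0.85 to 0.38, adjusted p 0.774). Without systemic control 6 the difference was -0.048. These levels rest on 8 to 126 reads a library.

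Zbtb16 (ENSMUSG00000066687, chr9:48654297-48836222, minus strand) encodes PLZF, a zinc finger repressor strongly induced by glucocorticoids in many cell types. It ranged from 7.44 to 20.2 CPM in topical controls and from 11.7 to 18.3 CPM in topical cKO, with a log2 fold change of 0.24 (SE 0.31). This difference was 0.11 without topical control 5 and 0.49 without topical control 1. Systemic libraries ranged from 5.62 to 12.97 CPM in controls and from 6.97 to 31.4 CPM in cKO, with 0.56 (SE 0.31, 95% interval -0.08 to 1.21, adjusted p 0.407). Systemic cKO 6 held the highest value, and without it the systemic difference was 0.18.

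Cebpd (ENSMUSG00000071637, chr16:15887286-15891031, plus strand) encodes C/EBPδ, an early factor of the acute phase and of differentiation. It ranged from 10.3 to 25.4 CPM in topical controls and from 19.4 to 24.7 CPM in topical cKO, with a log2 fold change of 0.27 (SE 0.24). After injection it ranged from 13.5 to 36.1 CPM in controls and from 18.3 to 29.8 CPM in cKO, with -0.03 (SE 0.23, 95% interval -0.52 to 0.46). Spidr overlaps Cebpd on the opposite strand.

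Hif3a (ENSMUSG00000004328, chr7:17031507-17062427, minus strand), a hypoxia-inducible factor subunit that the receptor induces in other tissues, did not pass the filter. It had at most 3 reads in any library and 0 in 15 of the 20, which allows a level of up to the floor of 0.0599 to 0.259 CPM. The genotype differences could not be resolved (exact permutation p 1 in both routes).

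The remaining members serve metabolism and the cell cycle. Glul (ENSMUSG00000026473, chr1:153899944-153909723, plus strand) encodes glutamine synthetase. It ranged from 9.71 to 19.7 CPM in topical controls and from 8.71 to 23.7 CPM in topical cKO, with a log2 fold change of 0.20 (SE 0.24, 95% interval -0.30 to 0.71). Systemic libraries ranged from 11.1 to 15.5 CPM in controls and from 10.1 to 16.5 CPM in cKO, with 0.11 (SE 0.24, 95% interval -0.40 to 0.62). Teddm2 overlaps Glul on the opposite strand.

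Cdkn1c (ENSMUSG00000037664, chr7:143458339-143461050, minus strand) encodes the cyclin-dependent kinase inhibitor p57 and did not pass the filter. It had 1, 2, 4, 8 and 13 reads in topical controls and 3, 7, 10, 12 and 68 in topical cKO, that is, 0.0714 to 0.480 CPM against 0.261 to 1.74 CPM. Most of the reads of the topical cKO group came from topical cKO 5. The group means were 0.262 CPM in topical controls and 0.728 CPM in topical cKO. The mean difference on the log2(CPM + 1) scale, which compresses differences below 1 CPM, was 0.41 (exact permutation p 0.0794). Without topical cKO 5 it was 0.23, and over the fits without 1 library the exact permutation p ran from 0.0476, without topical control 7, to 0.159. It was -0.15 in the systemic route (exact permutation p 0.302), with 2 to 28 reads in controls and 2 to 11 in cKO. The antisense gene Gm44732 overlaps Cdkn1c.

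Across the list, the topical comparison had 0 of the 8 tested members called in either direction, where 0.129% of all genes tested were called. Of the 8, 6 were higher and 2 lower in topical cKO, with a median log2 fold change of 0.26, against a median of 0.020 over all genes tested, of which 54.0% were higher. The systemic comparison likewise had 0 of 8 called, where 1.89% of all genes were. Again 6 were higher and 2 lower, with a median of 0.38, against -0.0045 over all genes tested, of which 49.5% were higher. Under the covariate of satellite-like CPM over 50 this median was -0.06, with Klf9 at -0.0073, Sgk1 at -0.15, Glul at -0.12 and Klf15 at 0.029, and on the log2 scale of the covariate the median was 0.10. At an unadjusted p under 0.05 by edgeR, 1 member stood in the topical comparison, where 5.66% of all genes did, and 2 in the systemic comparison, where 15.3% did. Klf15 was that gene in the topical route, and Tsc22d3 and Ddit4 in the systemic route, all with a higher level in cKO. The DESeq2 Wald test called 0 and 1 of the members, where it called 42 and 559 of all genes.

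**Figure D2:**
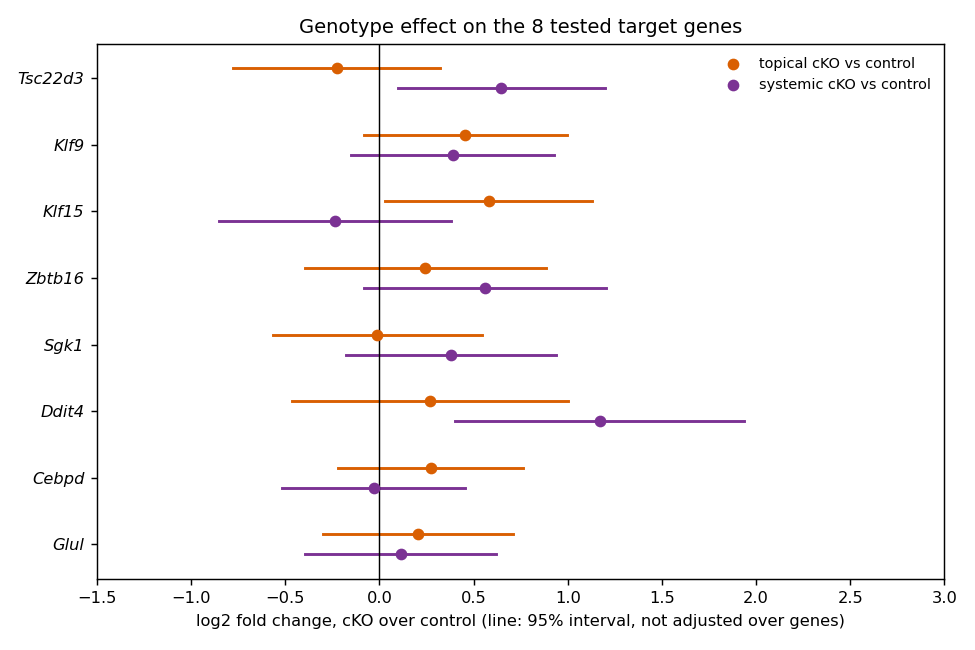
Log2 fold change of cKO over control (x axis) for the 8 tested genes (y axis) in the topical (orange) and systemic (purple) route; lines are 95% intervals from the edgeR fit, not adjusted over genes. The intervals of Klf15 in the topical route and of Tsc22d3 and Ddit4 in the systemic route lie above 0, and no interval lies below 0.

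The lower bounds of these intervals limit, within this fit, how large an undetected fall could be. In the topical route the lowest bound was that of Tsc22d3 with -0.78, followed by Sgk1 with -0.57 and Ddit4 with -0.47. In the systemic route it was that of Klf15 with -0.85, followed by Cebpd with -0.52 and Glul with -0.40. These systemic bounds do not carry over to the fit with satellite-like CPM over 50, where Tsc22d3 was at -0.25 (SE 0.43), Ddit4 at -0.0045 (SE 0.65) and Klf15 at 0.029 (SE 0.57). Over all alternatives tried for the 2 genotype comparisons, 0 of 334 fitted values of a member were called lower in cKO. These values are refits of the same 20 libraries. The main fit called 0 of all 12424 genes lower in the topical comparison and 66 in the systemic one. This count therefore sets no limit on a fall.

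The genotype effects of the routes were compared by their interaction, systemic minus topical. By edgeR none of the 8 members was called, where 0.25% of all genes tested were. At an unadjusted p under 0.05 by edgeR 1 member stood, where 1739 of the 12424 genes tested did. The Wald test and voom called none of the 8 either. Tsc22d3 had an interaction of 0.87 on the log2 scale (SE 0.37, edgeR unadjusted p 0.0295, adjusted p 0.293), with a lower mean in topical and a higher mean in systemic cKO. Ddit4 had 0.90 (SE 0.51, adjusted p 0.444), and Klf15 had -0.82 (SE 0.40, adjusted p 0.364). The other 5 ranged from -0.30 for Cebpd to 0.39 for Sgk1. Given satellite-like CPM over 50 as a covariate Tsc22d3 turned to -0.026 and Ddit4 to -0.27, and the median of the members moved from 0.13 to -0.30. On the log2 scale of the covariate that median was 0.0084.

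Members passed the test in the comparisons of systemic with topical tamoxifen within a genotype. In controls, 2 of the 8 were called lower in the systemic than in the topical route, where 8.16% of all genes tested were called lower, and 0 were called higher, where 10.2% were. Klf15 fell by 0.99 on the log2 scale (SE 0.28, edgeR adjusted p 0.0188), and Ddit4 fell by 1.20 (SE 0.37, adjusted p 0.0286). The median of the 8 was -0.29, against 0.00081 over all genes tested. The control groups of Klf15 did not overlap, which held for 6.26% of all genes in that direction. Those of Ddit4 overlapped through topical control 5 alone. Both calls were at the edge: Klf15 had an adjusted p of 0.0576 without systemic control 3, 0.0525 without topical control 7 and 0.0576 with the replicate block (-0.84). Ddit4 lost the call without systemic control 3, 5 or 6 or without topical control 1 or 3 (log2 fold change -0.996 to -1.19, adjusted p 0.0615 to 0.0855). It also lost it with all genes that had a count (-1.22, adjusted p 0.0607) and with only the libraries compared (-1.20, adjusted p 0.0628). Given satellite-like CPM over 50 as a covariate Ddit4 turned to 0.15, and Klf15 was at -1.31 with an adjusted p of 0.851; that fit links the routes through systemic cKO 2 alone.

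In cKO, Klf15 was called lower in the systemic route and the other 7 were not called, where 4.02% of all genes tested were called lower and 5.19% higher. Klf15 fell by 1.80 (SE 0.28, 95% interval -2.39 to -1.21, edgeR adjusted p 0.000317). The groups did not overlap, with 1.62 to 3.22 CPM in topical against 0.391 to 0.875 CPM in systemic cKO, a pattern that held for 3.32% of all genes in that direction. This call held under all 10 other settings that gave a value (log2 fold change -1.67 to -1.86, adjusted p 1.71e-07 to 0.00427) and without each library in turn (adjusted p 0.000448 to 0.00171). These settings include both satellite-like covariates, which were chosen after seeing the data. Of the 5 systemic cKO libraries 4 were on the low side of 50 CPM, like all topical libraries. Whether satellite-like transcripts have a part in this route difference was not tested. In the same comparison Tsc22d3 stood at 0.50 on the log2 scale (SE 0.27, adjusted p 0.265), and Ddit4 -0.29 (SE 0.35, adjusted p 0.669).

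Genes of the immediate response to tissue dissociation moved with the route as well. Their 18 transcripts (Fos, Egr1, Dnajb1 and others) summed to 25924 to 35221 CPM in the topical and to 42287.5 to 65361 CPM in the systemic libraries, without overlap. In controls edgeR called 6 of the 18 higher in the systemic route, where 10.2% of all genes were, and in cKO 7, where 5.19% were. In controls the Wald test called 12, where it called 2775 of all genes, and voom called 12, where it called 3493. Given satellite-like CPM over 50, 0 were called, where 1 gene of all was. The edgeR counts over the fits without 1 library ran from 2 to 11 in controls and from 3 to 7 in cKO. In the systemic genotype comparison edgeR called 1 of the 18, where 1.89% of all genes were called, and in the topical one 0. This was Fosb, higher in cKO by 1.71 on the log2 scale (SE 0.31, edgeR adjusted p 0.00521). It was not called with only the libraries compared (1.70, adjusted p 0.0615). Nor was it with satellite-like CPM over 50 (0.33) or on the log2 scale (1.16). Of the 7 sebaceous gland markers, 6 in controls and all 7 in cKO had a lower level in the systemic route with none called. Their sums ran from 856 to 3483 CPM in topical and from 244 to 2828 CPM in systemic libraries. In cKO all 6 tested fibroblast markers (median log2 fold change -1.18) and all 5 tested endothelium markers (-0.92) were lower too, with none called. In controls 3 of the 6 and 4 of the 5 were lower, with medians of 3.62e-05 and -0.098. Of the 6 adipocyte markers only Adrb3 passed the filter, and it was called higher in the systemic route in both genotypes (log2 fold change 2.26, SE 0.45 in controls and 1.68, SE 0.49 in cKO). The adipocyte sums were 0.413 to 1.24 CPM in topical and 0.579 to 3.61 CPM in systemic libraries, with 2 of the 6 markers at 0 in all topical cKO and 3 in all topical control libraries. The part of these transcripts in the route difference of Klf15 was not tested.

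**Figure D3:**
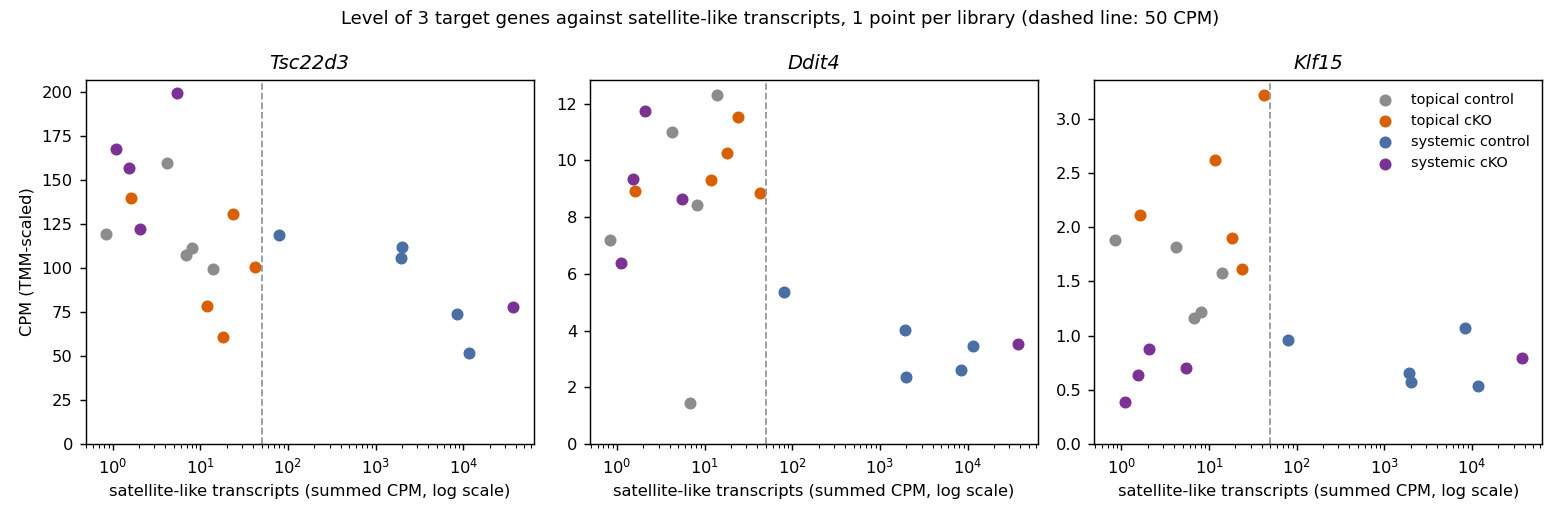
CPM of Tsc22d3, Ddit4 and Klf15 (y axes, linear) against the summed CPM of 12 satellite-like genes (x axes, log scale), 1 point per library, coloured by group; the dashed line marks 50 CPM. The 6 libraries to the right are the 5 systemic controls and systemic cKO 2, in which Ddit4 lay between 2.36 and 5.36 CPM, while Klf15 was low in all 10 systemic libraries on both sides of the line.

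Within the systemic route the split by satellite-like transcripts ran alongside the levels of Ddit4 and Tsc22d3. In the 6 libraries above 50 CPM, Ddit4 ranged from 2.36 to 5.36 CPM, and in the 4 systemic cKO libraries below it from 6.38 to 11.8 CPM. Tsc22d3 lay between 51.8 and 119 CPM in the former and between 122 and 199.7 CPM in the latter. The 10 topical libraries, all below 50 CPM, did not follow this split: they held 61.2 to 159.6 CPM of Tsc22d3 and 1.43 to 12.3 CPM of Ddit4. For both genes systemic cKO 2 lay with the systemic controls and not with its own genotype. Klf9, Klf15, Zbtb16, Sgk1, Cebpd, Glul, Hif3a and Cdkn1c overlapped between these sets of libraries. How many of all genes part these libraries in the same way was not counted. The split nearly follows the systemic genotype comparison, where 15.3% of all genes had an unadjusted p under 0.05 by edgeR. Whether the satellite-like transcripts have a part in the systemic differences was not tested.

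A wider list of 30 other genes induced by glucocorticoids, of which 27 were tested, was set beside the 10. In the topical route edgeR called 0 of the 27, where 0.129% of all genes were called. By edgeR 2 had an unadjusted p under 0.05, where 5.66% of all genes did. The Wald test and voom called 0 as well. Of the 27, 20 were higher and 7 lower with a median log2 fold change of 0.13; without topical control 5 these were 15 higher and a median of 0.015, and by voom 17 and 0.075. Its extremes were Irs2, an insulin receptor substrate, with 0.93 (SE 0.36, adjusted p 0.799), and Gadd45b, a stress-response gene, with -0.39 (SE 0.57, adjusted p 0.997). Systemically, 2 were called, both higher in cKO, where 1.89% of all genes were called in either direction. In all 15 were higher and 12 lower with a median of 0.029, near 0 and of no stable sign. It was -0.17 with 10 higher given satellite-like CPM over 50, -0.089 with 8 higher on the log2 scale, -0.029 with sex as a covariate, and from -0.098 without systemic control 3 to 0.12 without systemic control 5. Txnip, which binds thioredoxin and limits glucose uptake, was higher by 1.46 on the log2 scale (SE 0.28, edgeR adjusted p 0.00804). It ranged from 109.9 to 212 CPM in systemic controls and from 329 to 629 CPM in systemic cKO, without overlap. Rasd1, a Ras-like protein named for its induction by dexamethasone, rose by 1.62 (SE 0.33, adjusted p 0.0141), from 2.00 to 3.77 CPM in controls to 2.11 to 13.6 CPM in cKO, where the lowest value fell within the control range. Given satellite-like CPM over 50 as a covariate neither was called: Txnip stood at 1.14 (SE 0.44; 1.27 on the log2 scale) and Rasd1 turned to -0.57 (0.54 on the log2 scale). Rasd1 also lost its call with only the libraries compared (1.61, adjusted p 0.0919) and without systemic cKO 5 (1.46, adjusted p 0.0529). The lowest of the list was Zfp36, which encodes the mRNA-destabilizing protein tristetraprolin, with -0.57 (SE 0.36, adjusted p 0.483).

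Between routes edgeR called 7 of the 27 in controls. Of these 4 were higher in the systemic route, where 10.2% of all genes were, and 3 lower, where 8.16% were, so both shares were not far from those of all genes. Without 1 library the count ran from 2 to 8, with 2 called without systemic control 4 and without systemic control 5. The clock gene Per1 rose by 0.99 (SE 0.29, adjusted p 0.0219), the repressor Bcl6 by 0.99 (SE 0.29, adjusted p 0.0224) and the cell cycle inhibitor Cdkn1a by 0.89 (SE 0.25, adjusted p 0.0174). Fkbp5, the receptor's own feedback cochaperone, fell by 1.39 (SE 0.43, adjusted p 0.0275), from 2.39 to 5.86 CPM in topical to 0.638 to 1.87 CPM in systemic controls, and the cytochrome gene Cyp2b10 fell by 1.05 (SE 0.30, adjusted p 0.0172). Each of these 5 lost its call without at least 1 library, with adjusted p up to 0.0892, and under the covariate of satellite-like CPM over 50. Under that covariate Bcl6 was at 1.31, Cdkn1a at 0.84, Cyp2b10 at -0.74 and Per1 at 0.27, and Fkbp5 turned to 1.10. With the replicate block Bcl6 (0.83, adjusted p 0.0658) and Cdkn1a (0.80, adjusted p 0.0624) were not called. In cKO, Lpin1, a phosphatidate phosphatase, fell by 0.95 (SE 0.20, adjusted p 0.00339), Cyp2b10 fell by 1.04 (SE 0.30, adjusted p 0.0294), and Txnip rose by 0.87 (SE 0.27, adjusted p 0.0497). Cyp2b10 and Txnip lost this call without 7 and 8 of the 10 libraries in turn, with adjusted p up to 0.0809 and 0.161, and Txnip also with the replicate block (0.87, adjusted p 0.0802).

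**Figure D4:**
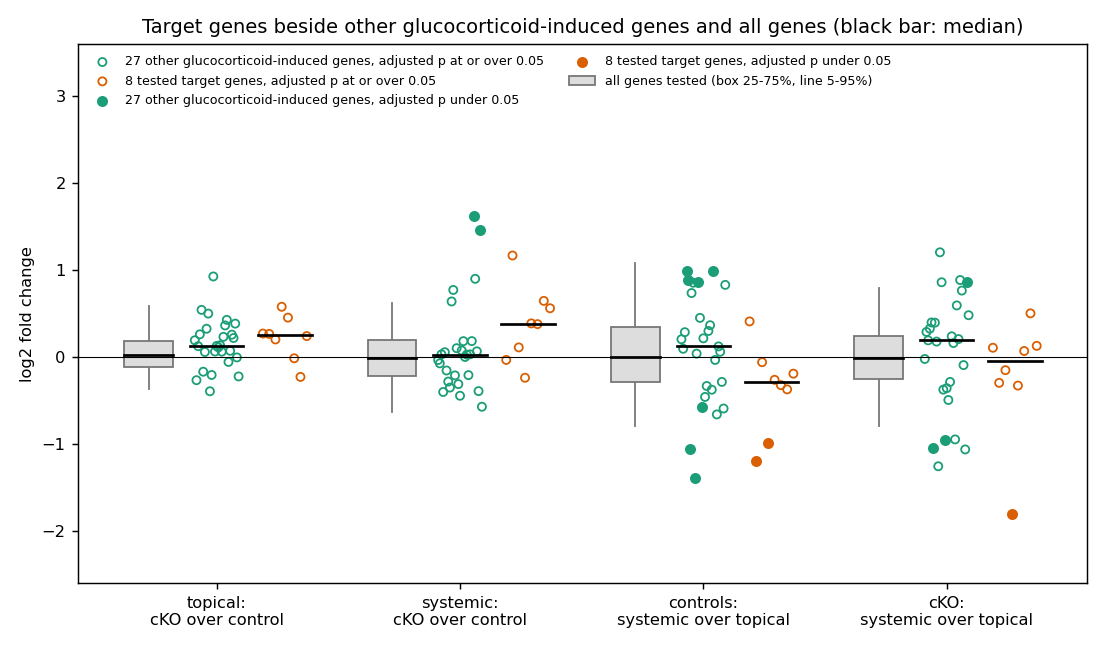
Log2 fold changes (y axis) in 4 comparisons (x axis) for all genes tested (box, 25% to 75%; line, 5% to 95%), 27 other glucocorticoid-induced genes (green) and the 8 tested target genes (orange); filled points passed the test and black bars are medians. Filled orange points are Ddit4 and Klf15 in controls and Klf15 in cKO, all lower in the systemic route.

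Inflammatory genes that the receptor is known to hold down were looked at from the other side. Of 20 such genes 14 were tested, and edgeR, the Wald test and voom called none in a genotype comparison. By edgeR 1 in the topical and 0 in the systemic route had an unadjusted p under 0.05, where 5.66% and 15.3% of all genes did. In the topical route 9 were higher and 5 lower in cKO with a median log2 fold change of 0.27 (0.085 without topical cKO 4, 0.077 without topical control 1 and -0.0013 with the replicate block), from the chemokine Ccl20 with -0.57 (SE 0.68) to the cytokine Tslp with 1.11 (SE 0.52, adjusted p 0.881). For injected mice 6 were higher and 8 lower with a median of -0.16, which turned to 0.31 given satellite-like CPM over 50 and 0.098 on the log2 scale. Those averaging 5 CPM or more ran from Ccl20 with -1.19 (SE 0.70, adjusted p 0.452; -0.15 without systemic control 5) to the adhesion molecule Icam1 with 0.91 (SE 0.58, adjusted p 0.491; 0.32 without systemic cKO 7). Of 16 tested clock genes edgeR called none in a genotype comparison. At an unadjusted p under 0.05 by edgeR there were 0 in the topical and 3 in the systemic route, where 5.66% and 15.3% of all genes were. Between routes edgeR called 3 higher in systemic than in topical controls, where 10.2% of all genes were. In cKO it called 1 higher and 1 lower, where 5.19% and 4.02% were. Among the clock genes averaging 5 CPM or more, the lowest in the systemic genotype comparison was the period gene Per3 with -1.22 (SE 0.32, adjusted p 0.0517). Per3 was called lower by the DESeq2 Wald test (-1.19, adjusted p 0.0131), with mitochondrial percent as a covariate (-1.42, adjusted p 0.00550, beside 3 other clock genes) and without systemic cKO 2, systemic control 1 or systemic control 4 (adjusted p 0.00958 to 0.0418). Given satellite-like CPM over 50 it was at -0.49. Of the 14 tested inflammatory genes 11 were lower in systemic than in topical controls, with a median log2 fold change of -0.50. EdgeR called 3 lower and 1 higher, where 8.16% and 10.2% of all genes were. In cKO 12 were lower in the systemic route, with a median of -1.31. There 2 were called lower and 0 higher, where 4.02% and 5.19% of all genes were.

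Correlations between members from mouse to mouse ran from negative to moderately positive, with most pairs positive. Over the 28 pairs of the 8 tested genes, Pearson's r of log2 CPM over 20 libraries had a median of 0.19, from -0.29 to 0.56. Of these pairs 23 were positive. After the group means were taken out the median was 0.11, from -0.43 to 0.64, and 21 of the 28 pairs were positive. The closest pair was Tsc22d3 and Glul in both cases. The points share library depth and scaling, and these values are a description. Among 6033 genes averaging 10 CPM or more, those most like Tsc22d3 across the 20 libraries were Tmed3 (r 0.84), Tmbim1 (0.82), Fuca1 (0.82), Creg1 (0.81) and Os9 (0.80), and none of them is a member.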

How the data were processed

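The deposited values are raw counts: whole numbers of reads for each of 25719 Ensembl genes in each of 20 mice, with no normalization by the authors. STAR, featureCounts and the builds GRCm38 and mm10 are named in the submitters' processing notes without versions or settings, and whether counting used strand is not given in the sources used here. Per the labels' protocols, total RNA of sorted keratinocytes was made into SmartSeq II libraries.

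Groups were taken from the genotype and treatment labels. A single model over all 20 libraries was fitted in edgeR 4.0.16 (R 4.3.3): TMM normalization, which corrects library totals for composition, filterByExpr (minimum count 10, minimum total count 15), and the robust quasi-likelihood test with 1 coefficient per group. Benjamini-Hochberg adjustment ran over all 12424 genes tested; called means an adjusted p under 0.05. The p-values measure the spread between mice as labelled. CPM values use TMM-scaled totals, whereas summed lists and the floor of 3 counts use plain totals. Counts lack molecular identifiers, so floors cover counting error only. Genes below the filter, and Cyp11b1, had exact permutation tests, two-sided, on log2(CPM + 1). The fitting steps were tested on simulated data. Coordinates and exon lengths are from GENCODE M21 (GRCm38), and promoters are from RefSeq (GRCm38.p6).

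The members and gene lists were chosen with earlier results of these data known. All 10 members were named. Of other lists, called genes and the lowest and highest member averaging 5 CPM or more were eligible, with at most 5 glucocorticoid-induced genes in a route comparison. Extremes of marker lists are not printed.

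Other settings tried were size factors and the Wald test of DESeq2 1.42.0, voom with quality weights (limma 3.58.1), no filter beyond 1 count, a filter at a mean of 5 CPM, a fit of the compared libraries alone, a block for the mouse number, covariates for sex and mitochondrial percent, and leaving out each library. The permutation tests were also run with a pseudocount of 0.1 CPM in place of 1 CPM. The satellite-like covariates, of summed CPM over 50 and on the log2 scale, were chosen after seeing the data.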

Additional observations from a re-analysis of the deposited data

Results flagged for a closer look

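Values of the 10 members, Nr3c1, Txnip, Rasd1, Fkbp5 and Per1 were screened for a single library far from the other 4 of its group, in 60 groups of 15 genes. Chance alone marks about 1 group in 20. The screen marked 4 groups, all of members. Zbtb16 in systemic control 1 was at 5.62 CPM (88 reads), while the other 4 systemic controls were between 11.53 and 12.97 CPM. The other 3 marks were of Hif3a, where a few reads in 1 library stood beside 0 in the other 4 of the group: systemic cKO 2 at 0.264 CPM (3 reads), topical cKO 7 at 0.261 CPM (3 reads) and topical control 3 at 0.0526 CPM (1 read).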

How the results depend on the processing

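Of 951 refitted values of members, 876 kept direction and side of the threshold, 56 turned direction, 13 lost a call without turning and 6 gained one. Among those that turned, Ddit4 for the route in controls with satellite-like CPM over 50 also lost its call. The number of genes called in the topical comparison (16) became 42 by the DESeq2 Wald test, 26 by voom and 9 with the replicate block. That of the systemic comparison (235) became 559 by the Wald test, 35 with only the libraries compared, 1320 with mitochondrial percent, and 0 with either satellite-like covariate. That of the interaction (31) became 321 by the Wald test, 204 by voom, 49 among genes averaging 5 CPM or more, 0 with the replicate block, 49 with sex, 364 with mitochondrial percent and 0 with either satellite-like covariate. That of the route in controls (2277) became 3493 by voom, 3496 with mitochondrial percent, and 1 and 118 with satellite-like CPM over 50 and on the log2 scale. The cause was not tested. Over leave-one-out fits these counts ran from 10 to 19, 81 to 787, 16 to 470 and 1463 to 2524, and that of the route in cKO (1145) from 746 to 1218; the systemic 787 and the interaction 470 came without systemic cKO 2. The median of the members ran from 0.11 to 0.40 in the topical, 0.25 to 0.49 in the systemic comparison and -0.07 to 0.27 in the interaction over the same fits. With satellite-like CPM over 50 it was -0.06 in the systemic comparison and -0.30 in the interaction. On the log2 scale it was 0.10 in the systemic comparison and 0.0084 in the interaction.

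Sgk1 in the topical comparison turned to 0.087 by voom, 0.010 among genes averaging 5 CPM or more, 0.066 with mitochondrial percent and 0.027 with log2 satellite-like CPM, and ran from -0.16 to 0.21 over leave-one-out fits. In the systemic comparison Cebpd turned to 0.072 with mitochondrial percent. With satellite-like CPM over 50 Tsc22d3 was at -0.25, Klf9 at -0.0073, Klf15 at 0.029, Sgk1 at -0.15, Ddit4 at -0.0045, Glul at -0.12 (-0.082 on the log2 scale) and Rasd1 at -0.57. In the interaction Klf9 turned to 0.13 by voom and 0.029 with the replicate block, Glul to 0.0175 with the replicate block, and with satellite-like CPM over 50 Tsc22d3 to -0.026, Zbtb16 to -0.00091, Sgk1 to -0.14 and Ddit4 to -0.27. For the route in controls the same covariate gave 0.69 for Tsc22d3 (0.32 on the log2 scale), 0.22 for Klf9, 0.20 for Zbtb16, 0.32 for Sgk1, 0.15 for Ddit4, 0.22 for Glul (0.18 on the log2 scale) and 1.10 for Fkbp5. For the route in cKO Sgk1 turned to -0.088 by voom and Zbtb16 to -0.044 with the replicate block.

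Leaving out 1 library turned further values: Glul from -0.017 to 0.39 and Gadd45b from -0.66 to 0.31 and Ccl20 from -0.82 to 0.012 in the topical comparison, and Cebpd from -0.19 to 0.15 in the systemic one. In the interaction Klf9 ran from -0.31 to 0.093, Zbtb16 from -0.062 to 0.52 and Glul from -0.28 to 0.13. For the route in controls Zbtb16 ran from -0.33 to 0.055 and Glul from -0.15 to 0.13, and in cKO Zbtb16 from -0.25 to 0.33, Sgk1 from -0.21 to 0.23 and Glul from -0.29 to 0.071. The systemic difference of Cyp11b1 ran from -0.027 to 0.029, and that of Hif3a from -0.015 to 0.069 in the topical and -0.050 to 0.042 in the systemic route.

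Mice with the same number did not deviate together throughout: the correlation of their deviations ran from -0.14 to 0.34 in the topical and -0.018 to 0.24 in the systemic route, so the numbers were not taken as pairs. With the replicate block Ddit4 was called in the systemic comparison (1.52, adjusted p 0.0413) and Klf15 was not called for the route in controls (-0.84, adjusted p 0.0576). Depth limits Cyp11b1, Hif3a and Cdkn1c, which had at most 6, 3 and 68 reads in a library.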
